A study of Mus musculus with 12 samples.

Results

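The genes described here encode the core of the Mediator complex and the kinases that phosphorylate RNA polymerase II, without the Cdk8 kinase module of Mediator. They were found by symbol, and all 35 were present in the tables of 12 libraries, among 25759 genes in each table. Of these, 26 encode Mediator subunits and 9 encode kinases and their partners. The libraries were made from polyadenylated RNA of HATX3 embryonic stem cells (ESCs), now a diploid mouse line although derived as haploid cells, in which doxycycline switches on Xist through an nls-rtTA transactivator at Rosa26. Wild-type cells were the polyclonal parental line. ΔCdk8 cells were 3 independent clones, numbered 8, 11 and 15, each homozygous for a small deletion that removes the start codon of Cdk8. Each genotype was sequenced in uninduced conditions and after 48 h of Xist expression, with 3 libraries per group, numbered 1, 2 and 3 in wild-type. A clone is a single line, so that differences between the genotypes include differences among the 3 clones.

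Mediator is the large coactivator complex that connects DNA-bound transcription factors with RNA polymerase II. Its head and middle modules contact the polymerase, its tail receives activators, and Med14 runs through all of them as the central scaffold. The detachable kinase module, which contains Cdk8 or Cdk19 with Ccnc, Med12 and Med13, binds the middle module. The polymerase itself is phosphorylated on its C-terminal domain by Cdk7 with Ccnh and Mnat1 (the Cdk-activating kinase, CAK, within TFIIH), by Cdk9 with Ccnt1 or Ccnt2 (P-TEFb, which releases paused polymerase) and by Cdk12 or Cdk13 with Ccnk, which act during elongation.

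Reads assigned to genes numbered 22170087 to 60798578 per library, and each of the 35 genes had at least 146 reads in each library. The TPM of Cdk8 did not separate the genotypes, with 64.2, 69.4 and 74.2 in uninduced wild-type cells and 34.4, 56.8 and 85.3 in clones 8, 11 and 15. Clone 15 lay above every wild-type replicate. The deletion takes out only a short stretch around the start codon, whose reads the tables do not count apart, so that this level, which rests on exon reads of the whole transcript, does not test the deleted stretch. Of all reads assigned to Cdk8, which the fits used, 70.4% to 96.4% lay in introns. The study tested the clones by western blot, by qRT-PCR of the transcript and by sequencing of the locus, which were not analysed here, and the genotypes are given as labelled. Of 8 ESC marker genes, all were detected in every library, with a summed level of 3367 to 6370 TPM in uninduced wild-type cells and 4129 to 7021 in uninduced clones. Dppa5a and Pou5f1 carried most of this sum, with medians of 2852 and 1294 TPM. Others spread widely over the 12 libraries, Nanog from 50.2 to 407, Esrrb from 32.4 to 247 and Tfcp2l1 from 10 to 135 TPM. The summed level of 14 markers of differentiated cell types was 13.7 to 23.8 TPM in uninduced wild-type cells and 25.1 to 36.0 TPM in uninduced clones. Thy1 carried most of this sum, with a median of 13 TPM over the 12 libraries, whereas each of the other 13 had a median of at most 1.67 TPM. Without Thy1 the sum was 5.40 to 7.65 TPM in uninduced wild-type replicates and 6.39 to 17.9 TPM in uninduced clones. Sox17, Foxa2, Mesp1 and Col3a1 were each at 0 in at least 1 library. After induction these 14 markers summed to 9.19 to 25.8 TPM in wild-type and 31.4 to 39.3 TPM in ΔCdk8 cells. Their part in the results was not tested, and in bulk RNA fewer cells of a type and less RNA per cell cannot be told apart.

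All 35 genes were expressed in uninduced wild-type cells, with group means from 14.2 TPM for Cdk13 to 113 TPM for Med4 and a median of 40.1 TPM. TPM is normalised for transcript length, so that genes can be set side by side. The head subunits had a median of 54.5 TPM, the middle subunits 28.0 TPM and the tail subunits 30.3 TPM. Within the kinases, the catalytic subunit was the most abundant partner in CAK and P-TEFb. Cdk7 stood at 96.3±0.243 TPM (mean±s.d., n = 3) against 32.9±2.14 for Ccnh and 18.3±4.61 for Mnat1. Cdk9 stood at 97.6±4.79 TPM against 44.2±4.02 for Ccnt2 and 28.1±2.21 for Ccnt1. The order was different for the third kinase group, in which the cyclin Ccnk (81.8±14.4 TPM) exceeded both Cdk12 (53.0±5.43) and Cdk13 (14.2±0.816). The levels of Cdk7 and Cdk9, and those of Cdk13 and Med27 at the other end (14.7±1.47 TPM), did not differ beyond their spread. The group median of the 35 genes was 39.7 TPM in induced wild-type cells, 32.9 TPM in uninduced ΔCdk8 cells and 31.1 TPM in induced ΔCdk8 cells.

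**Figure D1:**
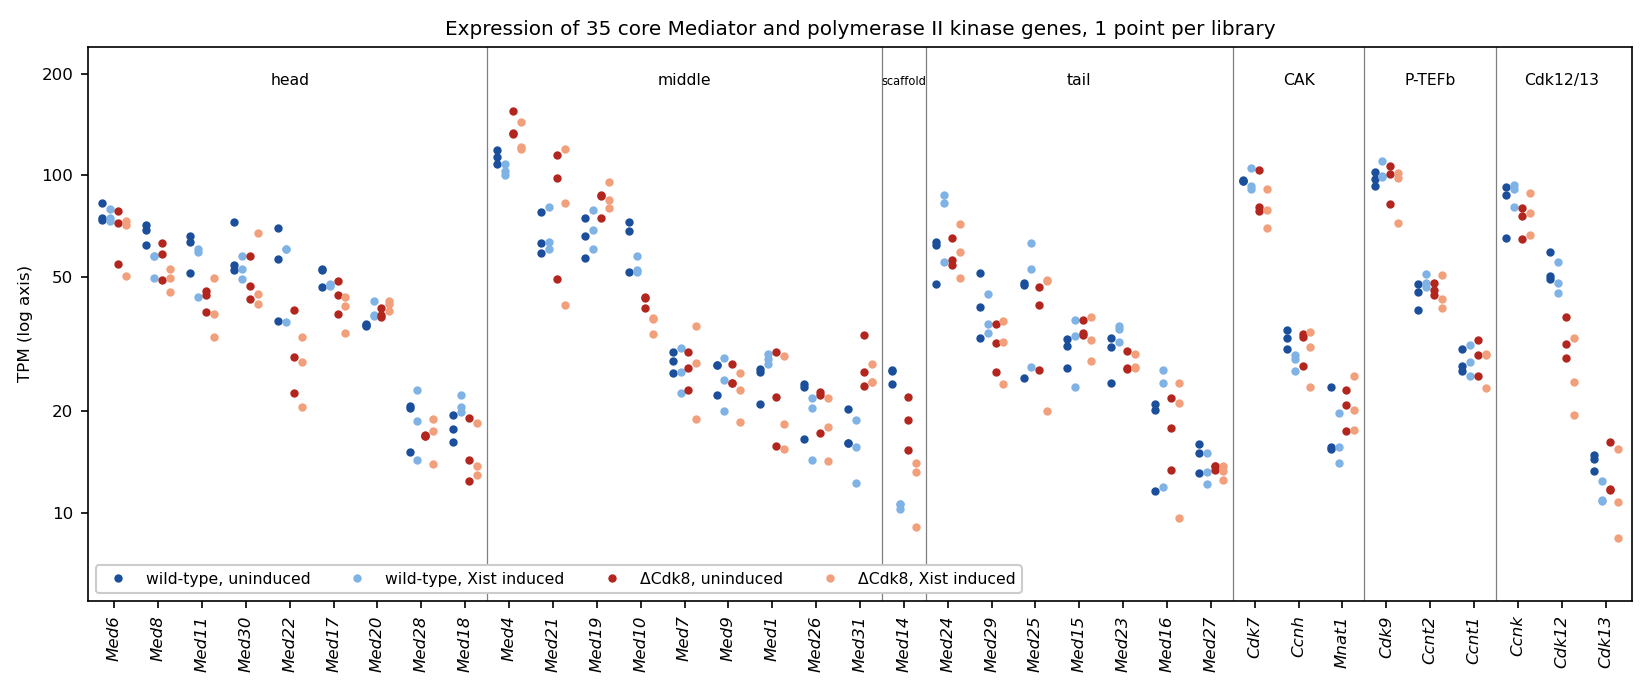
TPM (log axis) of the 35 genes in 12 libraries, 1 point per library, grouped by module and ordered by the uninduced wild-type mean. In wild-type cells Med14 is the gene whose induced points (10.3 to 10.7 TPM) lie farthest below its uninduced points (24.0 to 26.6 TPM), and Cdk12 lies between 28.8 and 38.1 TPM in uninduced ΔCdk8 cells against 49.4 to 59.3 TPM in uninduced wild-type cells.

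Most promoters of these genes hold more CpG dinucleotides than the median RefSeq window. A TATA box is about as rare in them as over all windows. RefSeq windows of 300 bases around the start site (GRCm38.p6) matched 30 of the 35 genes, leaving out Med8, Med23, Med24, Med30 and Ccnh. The windows held a median of 21 CpG dinucleotides, compared with 7 over all 32851 RefSeq windows, and their median GC content was 57.3% compared with 52.7%. The letters CCGGAAG, the core that ETS family factors bind, were found on either strand in 11 of 30 windows (36.7%) and in 8.86% of all windows. The NRF1 core GCATGCG was found in 3 of 30 windows (10%, against 3.58% of all), the YY1 core ATGGCGG in 4 (13.3% against 4.05%), the CCAAT box in 13 (43.3% against 37.4%) and TATAAA in 3 (10% against 13.6%). Hits of different motifs shared bases in 1 member window, and the NRF1 core can be read on both strands of a single site. No motif of the 5 was found in 10 of the 30 windows. These shares describe letters in a window and say nothing of which factor binds there. The ETS, NRF1 and YY1 cores each hold a CpG, whereas the CCAAT box and TATAAA do not. The part of CpG content in these shares was not tested. The stretches printed here lie before both the RefSeq start and the gene start used in the tables. They are shown for Med14, the scaffold gene on which the induction results turn (chrX:12762074-12762223, minus strand), for Cdk13 (chr13:17805098-17805347, minus strand), whose window has the most CpG dinucleotides, 52, for Med4, the most abundant member (chr14:73509799-73510024, plus strand), for Med17 (chr9:15279932-15280156, minus strand), which holds 3 of the motifs, and for Med10 (chr13:69802120-69802369, plus strand), whose window holds none and has the fewest CpG dinucleotides, 4. The window of Med4 holds 4 of the motifs, but its NRF1 and YY1 cores do not lie within the printed stretch. Capitals mark the ETS core, the NRF1 core and the CCAAT box on either strand.
Med14: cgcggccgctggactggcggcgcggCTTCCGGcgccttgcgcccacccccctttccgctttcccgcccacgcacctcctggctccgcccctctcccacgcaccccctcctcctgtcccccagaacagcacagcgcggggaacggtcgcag
Cdk13: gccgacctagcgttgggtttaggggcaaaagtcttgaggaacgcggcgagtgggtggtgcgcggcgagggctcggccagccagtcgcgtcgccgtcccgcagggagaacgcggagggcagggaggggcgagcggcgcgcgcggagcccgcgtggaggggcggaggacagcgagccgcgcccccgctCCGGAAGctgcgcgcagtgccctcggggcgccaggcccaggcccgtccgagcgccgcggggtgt
Med4: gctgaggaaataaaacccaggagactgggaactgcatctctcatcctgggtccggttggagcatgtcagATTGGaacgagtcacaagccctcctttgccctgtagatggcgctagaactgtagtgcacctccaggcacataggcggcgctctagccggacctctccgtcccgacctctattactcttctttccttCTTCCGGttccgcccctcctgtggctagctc
Med17: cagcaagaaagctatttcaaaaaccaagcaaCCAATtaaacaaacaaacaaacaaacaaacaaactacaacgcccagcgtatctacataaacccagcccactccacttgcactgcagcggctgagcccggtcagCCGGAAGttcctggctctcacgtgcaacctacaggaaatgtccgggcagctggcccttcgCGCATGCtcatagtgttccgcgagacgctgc
Med10: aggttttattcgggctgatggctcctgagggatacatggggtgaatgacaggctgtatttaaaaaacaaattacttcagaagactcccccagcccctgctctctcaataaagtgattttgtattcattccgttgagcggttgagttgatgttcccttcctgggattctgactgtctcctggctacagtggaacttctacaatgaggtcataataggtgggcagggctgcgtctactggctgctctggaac

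Med14 is the only X-linked gene of the 35 (chromosome X, 12675369 to 12762073, minus strand, GRCm38) and was the only one that passed the threshold upon Xist induction in wild-type cells. Its level was 24.0, 26.6 and 26.4 TPM in uninduced wild-type replicates 1, 2 and 3, and 10.7, 10.3 and 10.6 TPM after induction. The groups did not overlap and the induced replicates lay close together. Med14 fell by 1.26 on the log2 scale, a 2.4-fold decrease (SE 0.10, adjusted p = 0.00237, edgeR quasi-likelihood test over 14006 genes). A gene was called where the fold change exceeded 2 and the adjusted p was under 0.01, which 1.01% of all genes tested met in the lower direction and 0.15% in the higher direction. With the replicate number as a block Med14 was again the only member called, compared with 2.48% of all genes in the lower direction. Without the block, the edgeR adjusted p was 0.131 without replicate 2 and 0.12 without replicate 3, with log2 fold changes of −1.23 and −1.29, so that Med14 was not called. With the block it was 0.0141 without replicate 2, again not called, and 0.00153 without replicate 3, where Med14 was called.

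In ΔCdk8 cells Med14 stood at 15.4, 18.9 and 22.1 TPM in uninduced clones 8, 11 and 15, and at 9.07, 13.3 and 14.1 TPM after induction. It was lower after induction in each clone, and the groups did not overlap, as was the case for 2 of 35 members and 3.62% of all genes in the lower direction. Its log2 fold change was −0.57 (SE 0.22, edgeR adjusted p = 1.00). Without the clone as a block none of 14832 genes was called (0.0%), and the number of all genes called with it is not given here. An unadjusted p under 0.05 was found for 392 genes (2.64%), Med14 among them, and in the lower direction for 2.09%. With the clone as a block, which takes up the large differences between clones, the log2 fold change was −0.59 (SE 0.08) and the edgeR adjusted p was 4.92e-05, a value under 0.05 in the lower direction being reached by 6.16% of genes, but the fold change of 1.5 stayed under the minimum of 2.

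Residual expression, the TPM after induction over the TPM of the same replicate number or clone in uninduced conditions, was 0.444, 0.387 and 0.403 for Med14 in wild-type and 0.590, 0.702 and 0.635 in ΔCdk8 cells. All 3 clones retained more than any wild-type replicate. The means were 0.411±0.029 and 0.642±0.0562 (mean±s.d., n = 3 each), a difference of 0.231 with a 2-sided exact permutation p of 0.1, the smallest that 3 against 3 values allow. The interaction of genotype and induction, which asks whether the fold change differs, was 0.71 on the log2 scale (SE 0.25, edgeR adjusted p = 0.936) without the block, where no gene was called and 2.68% had an unadjusted p under 0.05 in that direction, and 0.70 (SE 0.10, adjusted p = 0.00598) with it; 3.55% of 15137 genes had an adjusted p under 0.05 in that direction with the block. The fold difference of 1.62 stayed under the minimum of 2, so that Med14 was not called. The blocked adjusted p was 0.000683 without replicate 1 and 0.0207 to 0.0368 when any other replicate or clone was left out. Within the X chromosome Med14 was not at an extreme. Its residual expression exceeded that of 57.7% to 68.0% of 428 X-linked genes in the wild-type replicates and of 51.9% to 63.9% of 449 in the clones.

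In uninduced conditions Med14 stood lower in the clones, though not past the edgeR threshold. The clones averaged 18.8±3.37 TPM against 25.7±1.40 TPM in wild-type (73.3%), with no overlap between the groups. As a log2 fold change the difference was −0.57 (SE 0.16, adjusted p = 0.154 in edgeR, 0.0268 in DESeq2), and the 2-sided exact permutation p of the TPM was 0.1. Relative to the median ratio of all X-linked genes in the same clone, the level of Med14 was 0.577 in clone 8, 0.785 in clone 11 and 0.722 in clone 15. After induction the means were 10.5±0.200 TPM in wild-type and 12.1±2.68 TPM in ΔCdk8 cells (exact permutation p = 0.4), and the groups overlapped, with clone 8 below and clones 11 and 15 above all wild-type replicates.

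Med12, the X-linked subunit of the kinase module and therefore not one of the 35, is given beside it. Med12 stood at 20.4, 18.3 and 20.8 TPM in uninduced wild-type and 5.83, 5.70 and 6.62 TPM in induced wild-type cells, and at 22.1, 17.4 and 22.5 TPM and 16.9, 12.3 and 15.2 TPM in the clones. Here the uninduced groups overlapped and the induced groups did not (6.05±0.496 and 14.8±2.29 TPM, exact permutation p = 0.1). Med12 had a residual expression of 0.306±0.0171 in wild-type replicates and 0.715±0.0449 in the clones. Its interaction of genotype and induction was 1.27 on the log2 scale in both edgeR fits. The adjusted p was 0.0959 without the block and 0.00112 with it, where Med12 was called. With the block 3.55% of all genes had an adjusted p under 0.05 in that direction.

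**Figure D2:**
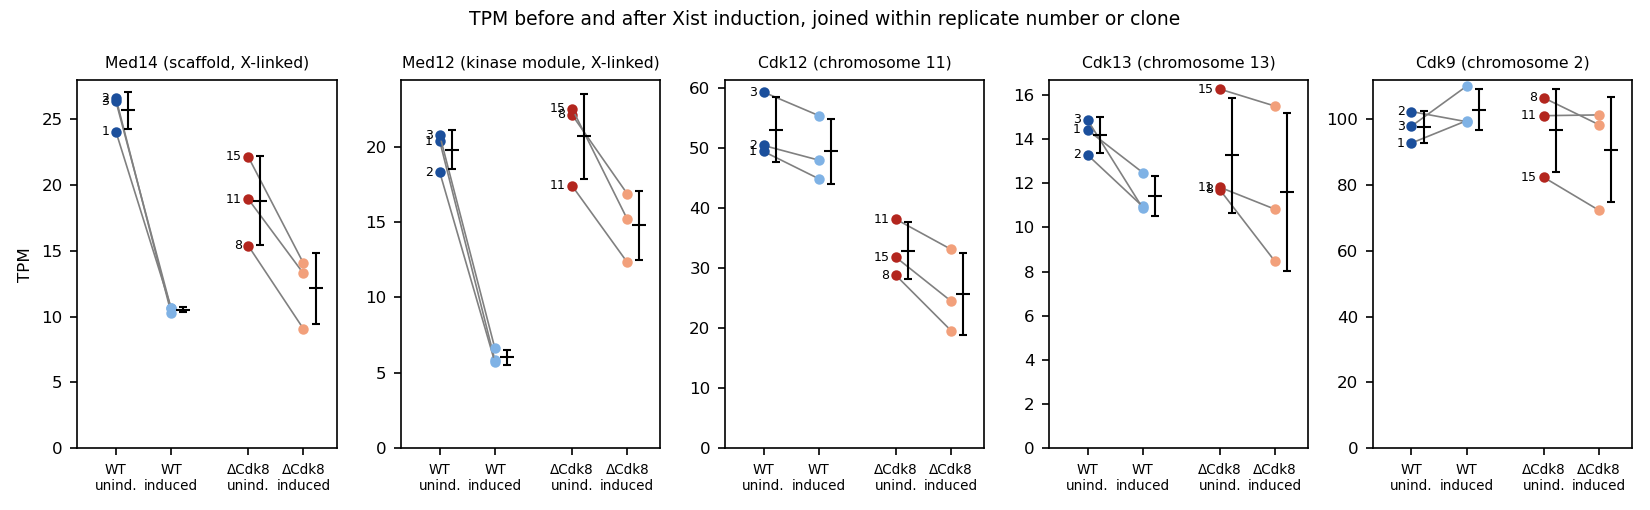
TPM of Med14, Med12, Cdk12, Cdk13 and Cdk9 in uninduced and induced cells, joined within replicate number or clone, with the mean±s.d. of 3 libraries beside each group. Induced Med14 overlaps between the genotypes (10.5±0.200 and 12.1±2.68 TPM), whereas induced Med12 does not, and Cdk12 is lower in all 3 clones before induction.

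Reads in the introns of Med14 were few, 27 to 317 per library. Scaled to the gene reads of each library (RPM), they stood at 2.98, 4.29 and 4.08 in uninduced and 1.95, 1.22 and 1.47 in induced wild-type replicates, and 5.35, 3.23 and 4.58 in uninduced and 3.68, 3.23 and 5.12 in induced clones. The wild-type groups were separate and the ΔCdk8 groups overlapped. The ratio of induced to uninduced intron reads was 0.432±0.195 in wild-type replicates and 0.935±0.221 in the clones (2-sided exact permutation p = 0.1). The uninduced log2 difference between the genotypes, −0.57 in gene reads, was −0.14 in intron reads (edgeR adjusted p = 0.771).

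The 34 autosomal genes had a median residual expression of 0.981 in wild-type and 0.943 in ΔCdk8 cells. No autosomal member was called in either genotype, and the largest fold changes were 1.33 for Med24 in wild-type and 1.26 for Cdk12 in ΔCdk8 cells. The 35 members had a median log2 fold change of −0.02 upon induction in wild-type, beside 0.03 over all genes tested, and of −0.05 in the clones, beside 0.01. Of the 34, 11 had a residual expression over 1 in every wild-type pair and 9 under 1 in every pair, compared with 29.9% and 28.8% of 11359 autosomal genes of at least 1 TPM. In the clones these numbers were 2 and 11, compared with 18.9% and 24.7% of 11850 genes. Med4, Med8, Med26, Cdk12 and Cdk13 were under 1 in every pair of both genotypes, and Med20 and Ccnk were over 1 in every pair of both. The share of all genes that moved the same way in every pair of both genotypes was not computed.

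**Figure D3:**
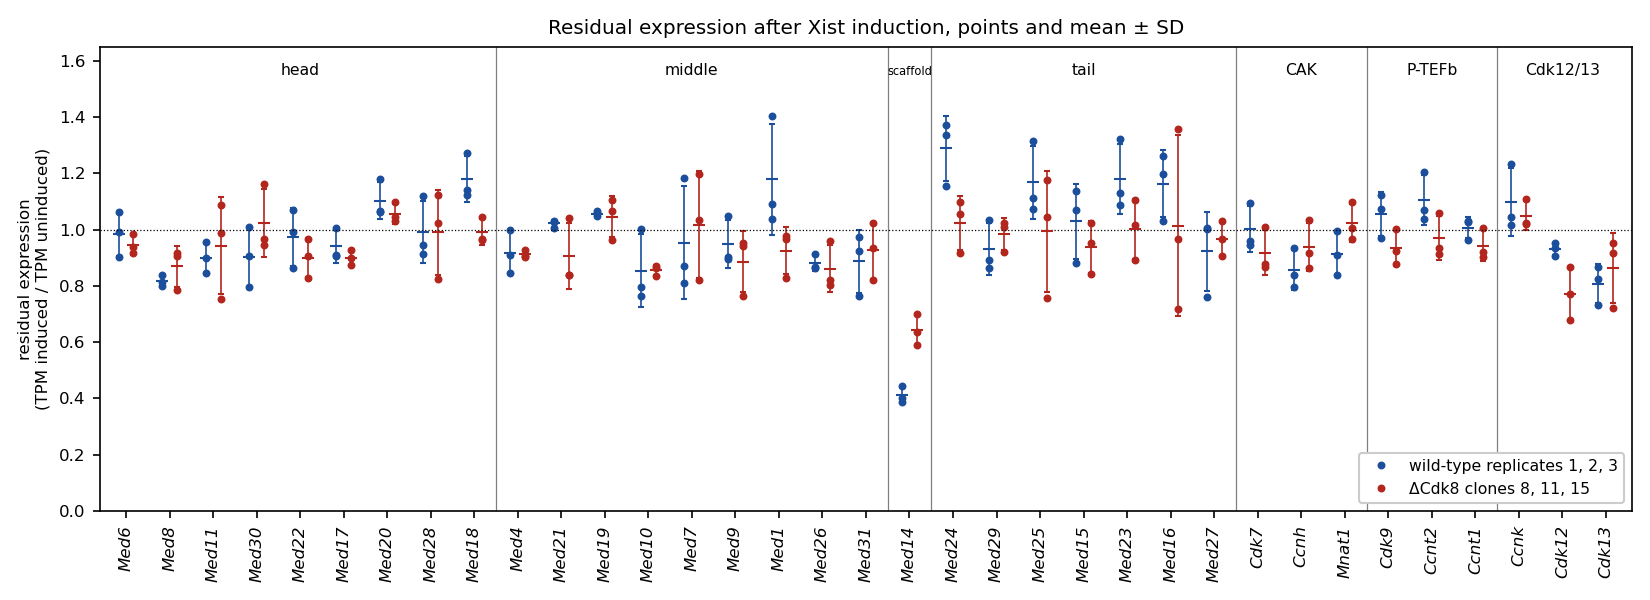
Residual expression (TPM after Xist induction over TPM in uninduced conditions) of the 35 genes in the 3 wild-type replicates and the 3 ΔCdk8 clones, with mean±s.d. In wild-type replicates Med14 stands alone below the others at 0.411±0.029, while the autosomal means span 0.807 to 1.29. In the clones its mean is again the lowest, at 0.642±0.0562 beside autosomal means of 0.773 to 1.06. Single points overlap there, with Cdk12 at 0.680 in clone 8 and Med14 at 0.702 in clone 11.

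Among the tail subunits, which receive activators, 5 of 7 had a positive log2 fold change in wild-type cells, compared with 53.4% of all genes, and 5 of 7 had one in the clones, compared with 53.0%. The tail medians were 0.26 and 0.06, respectively. Med24 stood at 47.8, 62.1 and 63.7 TPM in uninduced and 55.3, 83.1 and 87.4 TPM in induced wild-type replicates, and was higher after induction in each pair. Its log2 fold change was 0.41 (SE 0.21, edgeR adjusted p = 0.330) and, with the replicate block, 0.38 (SE 0.09, adjusted p = 0.0303). The blocked adjusted p was 0.000174 without replicate 1, 0.221 without replicate 2 and 0.177 without replicate 3, and intron reads gave a log2 fold change of 0.11. Med23 had a log2 fold change of 0.26 in both fits, with adjusted p values of 0.353 without and 0.0462 with the block (SE 0.14 and 0.07; with the block 0.0363 without replicate 1, 0.256 without replicate 2 and 0.213 without replicate 3), and its level went from 24.3, 31.1 and 33.0 TPM to 32.2, 35.1 and 35.8 TPM. With the block an adjusted p under 0.05 in the higher direction was reached by 2 of the 35 members and by 12.2% of all genes, and in the lower direction, by Med14 and Cdk13, by 2 of 35 and 10.8%. Without the block an unadjusted p under 0.05 was found in the lower direction for 2 of 35 members, Med14 and Cdk13, and for 10.4% of all genes. In the clones the residual expression of Med24 was 1.10, 1.06 and 0.917 and that of Med23 was 0.891, 1.02 and 1.10, on both sides of 1. The interaction of genotype and induction was −0.29 on the log2 scale for Med24 (SE 0.32, adjusted p = 1.00; 0.21 with the block, and with it 0.0342 without replicate 1).

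Med25 and Med16 of the tail and Med22 of the head differed most between the uninduced wild-type libraries. Med25 stood at 25.2, 47.9 and 47.3 TPM in uninduced and 27.0, 63.1 and 52.6 TPM in induced wild-type replicates, and at 46.7, 41.4 and 26.6 TPM and 48.9, 48.8 and 20.1 TPM in the clones. Replicate 1 and clone 15 were the low libraries in both conditions. For Med25 the edgeR log2 fold change upon induction came to 0.29 in wild-type replicates (SE 0.37, adjusted p = 0.714; 0.17 without replicate 2) and 0.10 in the clones (SE 0.42, adjusted p = 1.00), which turned to −0.02 without clone 11 and, with the block, to −0.04 without clone 8. Over the 35 genes, the GC content of the transcript and the log2 ratio of these libraries to the others of their group had Spearman correlations of −0.64 and −0.77 in uninduced and induced replicate 1 and −0.78 and −0.86 in uninduced and induced clone 15. Over 12080 genes these correlations were −0.24, −0.43, −0.36 and −0.59. In uninduced replicate 2 and clone 8 the values over the 35 genes were −0.08 and 0.17. Med16, with the highest GC content of the 35 at 60.2%, showed the same low libraries, with 11.6 TPM in uninduced replicate 1 against 21.1 and 20.2 TPM in replicates 2 and 3. The part of GC content in the results was not tested.

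The head subunits, which contact the polymerase, included the autosomal core subunit with the lowest mean residual expression in wild-type cells. Med8 stood at 62.1, 68.9 and 71.1 TPM in uninduced and 49.6, 57.8 and 57.8 TPM in induced wild-type replicates, without overlap. Its log2 fold change was −0.24 (SE 0.14, edgeR adjusted p = 0.371; 0.0592 with the block) upon induction of wild-type cells and −0.19 (SE 0.20, adjusted p = 1.00; −0.12 without clone 11) in the clones, in which the level went from 49.2, 63.2 and 58.5 TPM to 45.0, 49.8 and 52.9 TPM. The residual expression of Med8 was under 1 in all 6 pairs, as was that of Med4, Med26, Cdk12 and Cdk13 among the autosomal members. Of all autosomal genes, 28.8% were under 1 in every wild-type pair and 24.7% in every clone. Med18 was the head subunit at the other end in wild-type, with 16.2, 19.5 and 17.8 TPM in uninduced and 20.6, 22.3 and 19.99 TPM in induced replicates and a log2 fold change of 0.28 (SE 0.15, adjusted p = 0.337). Its groups did not overlap in wild-type, and in the clones it stood at 12.4, 19.2 and 14.3 TPM before and 13, 18.5 and 13.8 TPM after induction.

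Med30 had the largest positive interaction among the head subunits. It stood at 72.7, 52.3 and 54.3 TPM in uninduced and 57.7, 52.8 and 49.2 TPM in induced wild-type replicates, and at 47.0, 43.0 and 57.9 TPM and 44.5, 41.5 and 67.4 TPM in the clones. Uninduced replicate 1 and induced clone 15 were the high libraries. The interaction was 0.19 (SE 0.24, edgeR adjusted p = 1.00) and turned negative in intron reads. Without replicate 1 it was 0.07, and without clone 15 it was 0.08. Med20 had a log2 fold change of 0.11 in ΔCdk8 cells (SE 0.17, adjusted p = 1.00), with 38.0, 40.6 and 38.6 TPM before and 41.7, 42.4 and 39.7 TPM after induction. It was higher after induction in all 6 pairs, but only 3.94% to 6.79% of its exon reads were unique to it, and Gm20517 overlaps it on the same strand, so that its values are uncertain. Without clone 8 the log2 fold change was 0.05, and in intron reads it turned to −0.05. Med29, of the tail, had 42.7% to 53.4% unique exon reads, and every other member had at least 99.2%.

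Among the middle subunits, Med1, the subunit that nuclear receptors contact, was higher after induction in every wild-type pair and lower in every clone. It stood at 21.0, 26.7 and 26.2 TPM in uninduced and 29.5, 27.7 and 28.6 TPM in induced wild-type replicates, and at 22.1, 15.8 and 30.1 TPM and 18.3, 15.5 and 29.1 TPM in the clones. The interaction was −0.30 on the log2 scale (SE 0.28, edgeR adjusted p = 1.00; 0.148 with the block). Such an opposite movement in all 6 pairs was seen for 1.84% of all genes. In wild-type the groups of Med1 did not overlap, as was the case for 3 of 35 members in the higher direction (12.1% of all genes) and 5 of 35 in the lower direction (14.2%).

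Of the kinases, Cdk12 had the lowest residual expression in the clones. Cdk12, which phosphorylates the elongating polymerase, stood at 49.4, 50.4 and 59.3 TPM in uninduced wild-type replicates and at 28.8, 38.1 and 31.8 TPM in uninduced clones 8, 11 and 15. All clones lay below all wild-type replicates, and their mean of 32.9±4.77 TPM was 62.0% of the wild-type mean. Cdk12 differed by a log2 fold change of −0.75 (SE 0.19), with an adjusted p of 0.147 in edgeR and 0.0162 in DESeq2. After induction Cdk12 stood at 44.8, 47.9 and 55.4 TPM in wild-type and 19.6, 33.1 and 24.5 TPM in ΔCdk8 cells. Like Med4, Med8, Med26 and Cdk13, it was lower after induction in each of the 6 pairs. Its residual expression was 0.931±0.022 in wild-type and 0.773±0.0942 in the clones. Upon induction its log2 fold change in ΔCdk8 cells was −0.33 (SE 0.28, edgeR adjusted p = 1.00) and, with the block, −0.35 (SE 0.08, adjusted p = 0.0043), so that Cdk12 and Med14 were the 2 members of 35 with an adjusted p under 0.05 in the lower direction in the clones, compared with 6.16% of all genes. Without clone 8 the blocked value was −0.28 with an edgeR adjusted p of 0.157. The difference between the genotypes in induction was −0.23 (SE 0.33, adjusted p = 1.00; 0.184 with the block).

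Cdk13, the paralogue of Cdk12, overlapped between the genotypes; whether it differed from Cdk12 in this was not tested. It stood at 14.4, 13.3 and 14.9 TPM in uninduced wild-type replicates and 11.7, 11.8 and 16.3 TPM in the uninduced clones. In wild-type it was lower after induction, at 12.5, 11 and 10.9 TPM, with a log2 fold change of −0.27 (SE 0.10, edgeR adjusted p = 0.190; 0.0453 with the block, and with it 0.00345 without replicate 1, 0.200 without replicate 2 and 0.265 without replicate 3). In the induced clones it stood at 8.46, 10.8 and 15.5 TPM. The ratio of Cdk12 to Cdk13 TPM was 3.73±0.284 in uninduced wild-type and 2.55±0.640 in uninduced ΔCdk8 cells.

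Ccnk, the cyclin of both, stood at 65.4, 92.5 and 87.5 TPM in uninduced and 80.8, 93.9 and 91.4 TPM in induced wild-type replicates, and at 80.0, 65.0 and 75.9 TPM and 88.7, 66.4 and 77.4 TPM in the clones. Its residual expression was above 1 in all 6 pairs, and its log2 fold change in ΔCdk8 cells was 0.15 (SE 0.17, edgeR adjusted p = 1.00), and 0.07 without clone 8. Of the genes in the same neighbourhood as Cdk12, Med1 starts 9766 bp from the start of Cdk12 on the opposite strand of chromosome 11, so that they are transcribed away from each other, and its levels overlapped between the genotypes.

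Cdk9, the catalytic subunit of P-TEFb, stood at 92.7, 102 and 97.9 TPM in uninduced and 99.5, 99.2 and 110.0 TPM in induced wild-type replicates. In clones 8, 11 and 15 it was 106, 101 and 82.3 TPM before and 98.3, 101 and 72.3 TPM after induction. The genotypes overlapped in both conditions, with clone 15 lowest. All 3 P-TEFb genes had a positive log2 fold change in wild-type cells (median 0.11), compared with 53.4% of all genes. In the clones the values were −0.06 for Ccnt1, −0.04 for Cdk9 and −0.0015 for Ccnt2, which became 0.00040 with the block, and 53.0% of all genes were positive. None passed the test in any comparison.

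Cdk7, the catalytic subunit of CAK, stood at 96.3, 96.6 and 96.1 TPM in uninduced and 105, 92.9 and 91.1 TPM in induced wild-type replicates. In the clones it was 80.5, 104 and 78.3 TPM and 69.8, 91.3 and 79.1 TPM, so that the genotypes overlapped before induction. Mnat1, the assembly factor of CAK, stood at 23.6, 15.5 and 15.7 TPM in uninduced and 19.8, 14 and 15.7 TPM in induced wild-type replicates, and at 21.0, 17.6 and 23.2 TPM and 20.2, 17.7 and 25.5 TPM in the clones. Replicate 1 and clone 15 were high here, and Mnat1 has the lowest GC content of the 35 at 38.0%. The interaction of genotype and induction was 0.22 (SE 0.26, edgeR adjusted p = 1.00), and 0.11 without replicate 1.

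The remaining genes are given by their group means, in the order uninduced wild-type, induced wild-type, uninduced ΔCdk8 and induced ΔCdk8 (n = 3 each). Med6 of the head averaged 77.1, 75.8, 68.5 and 64.9 TPM. Med17 of the head had means of 50.6, 47.5, 43.9 and 39.6 TPM. Med28 of the head was lower, at 18.8, 18.7, 16.97 and 16.8 TPM. Of these, none was called in any comparison. Med7 of the middle module averaged 28.03, 26.5, 26.6 and 27.6 TPM. Med9 of the middle module averaged 25.7, 24.5, 25.4 and 22.6 TPM. Med26, the middle subunit that contacts elongation factors, had means of 21.4, 18.9, 20.8 and 18.1 TPM. The lowest middle subunit was Med31 in both wild-type groups and Med26 in both ΔCdk8 groups. Med15, the tail subunit that binds many activators, averaged 30.3, 31.5, 35.03 and 33.01 TPM. Med16 of the tail stood at 17.6, 20.9, 17.7 and 18.4 TPM. Med27 was the lowest of the tail, at 14.7, 13.5, 13.7 and 13.2 TPM. Med15 was the highest of these 3 tail genes in every library, whereas Med16 and Med27 overlapped. Med29 of the tail averaged 41.8, 38.4, 31.4 and 31.1 TPM. Ccnt2 of P-TEFb stood at 44.2, 48.7, 46.0 and 44.8 TPM. Here Ccnt2 was the more abundant cyclin of P-TEFb in every library. Ccnt1 of P-TEFb averaged 28.1, 28.3, 29.1 and 27.5 TPM. Ccnh of CAK had means of 32.9, 28.1, 31.5 and 29.7 TPM. Med19 of the middle module stood at 65.8, 69.6, 82.9 and 86.7 TPM. Med19 was above the autosomal median ratio in all 3 uninduced clones, and it overlaps Tmx2 and Zdhhc5 on the opposite strand, as Ccnh does Rasa1.

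In uninduced conditions, the question was whether loss of Cdk8 went along with other levels of the remaining Mediator genes. No member was called, nor was any of the 14646 genes tested (0.0% in either direction). In edgeR the unadjusted p was under 0.05 for 5 of 35 members in the lower direction (8.49% of all genes) and for none in the higher direction (11.9%). DESeq2 gave an adjusted p under 0.05 to Cdk12, Med10, Med11 and Med14, all lower in the clones, 4 of 35 compared with 3.41% of all genes. The median log2 fold change of the members was −0.22, beside 0.03 over all genes, and 29 of 35 were negative, compared with 47.9% of all genes. Each clone is compared with the same wild-type libraries, and genes of a complex are not independent replicates. By mean TPM, which is scaled to all transcripts, 24 members were lower and 11 higher. Against the median ratio of the autosomal genes of the same clone, 26 members were lower in clone 8, 20 in clone 11 and 28 in clone 15, and 15 were lower in all 3, compared with 26.4% of 11359 autosomal genes. Higher in all 3 were Med4, Med19 and Med31, compared with 26.3%.

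**Figure D4:**
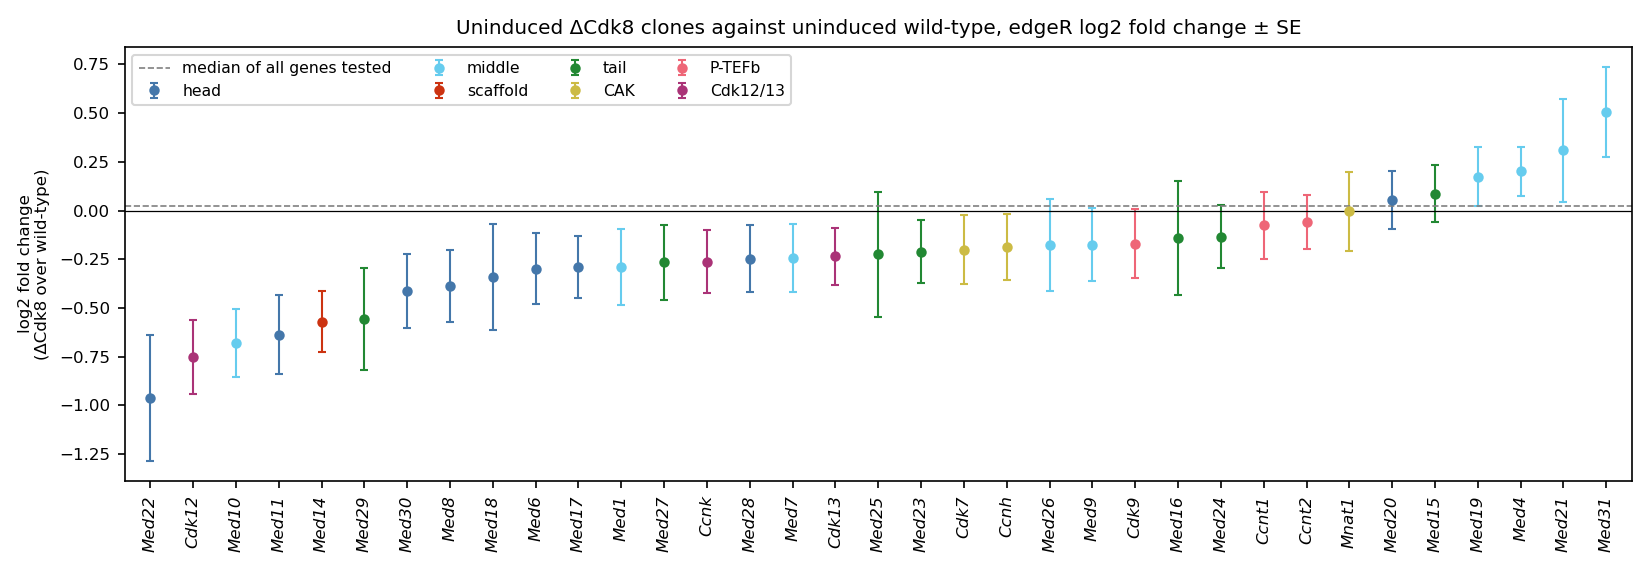
Log2 fold change±SE of the 35 genes in uninduced ΔCdk8 clones over uninduced wild-type replicates (edgeR, n = 3 each), ordered by size and coloured by module, with the median of all genes tested as a broken line at 0.03. The values run from −0.96 for Med22 to 0.51 for Med31, with 29 of 35 below 0.

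Of the 9 head subunits, 8 had a negative log2 fold change between uninduced genotypes, with a median of −0.34, as did 6 of the 7 tail subunits, with a median of −0.21, and all 3 genes each of CAK, of P-TEFb and of the Cdk12 and Cdk13 group. Over all genes 47.9% were negative. The modules were not tested against each other. Med22 stood at 37.0, 56.7 and 69.9 TPM in wild-type replicates and 28.9, 40.0 and 22.7 TPM in the clones. Replicate 1 lay below clone 11, so that the groups overlapped. Replicate 1 and clone 15 were the lowest libraries of their groups, at −0.77 and −0.60 on the log2 scale against the others. For Med22 the log2 fold change was −0.96 (SE 0.32, edgeR adjusted p = 0.189). Med11, a small partner of Med22 in the head, stood at 51.6, 66.1 and 63.5 TPM in wild-type and 39.4, 45.6 and 44.2 TPM in the clones, without overlap, with a log2 fold change of −0.64 (SE 0.20, adjusted p = 0.178 in edgeR and 0.0325 in DESeq2).

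Of the 9 middle subunits, 5 had a negative and 4 a positive log2 fold change, beside 47.9% negative values over all genes. Med10 stood at 51.6, 68.3 and 72.6 TPM in wild-type and 40.6, 43.4 and 43.5 TPM in the clones, without overlap, with a log2 fold change of −0.68 (SE 0.18, adjusted p = 0.149 in edgeR and 0.013 in DESeq2). In intron reads the difference was −0.17. After induction it was 51.7, 52.3 and 57.7 TPM in wild-type and 33.9, 37.5 and 37.8 TPM in the clones, so that the genotypes were separate in both conditions. Med31, the most conserved small middle subunit, was at the opposite end. It stood at 20.4, 16.1 and 16.1 TPM in wild-type and 33.6, 23.8 and 26.2 TPM in the clones, without overlap, with a log2 fold change of 0.51 (SE 0.23, edgeR adjusted p = 0.261). The induced levels were 18.9, 12.3 and 15.7 TPM and 27.6, 24.4 and 24.5 TPM, again without overlap. Groups that did not overlap were found for 4 of 35 members in the lower direction (6.79% of all genes) and 5 of 35 in the higher direction (16.3%), the latter being Med31, Med4, Med19, Med15 and Med20.

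The levels of 2 middle subunits are given beside those of the genes on their chromosomes. Med4, on chromosome 14, stood at 108, 119 and 113 TPM in wild-type and 132, 134 and 155 TPM in uninduced clones 8, 11 and 15, without overlap. Its log2 fold change was 0.20 (SE 0.13, edgeR adjusted p = 0.373). The median ratio of 424 chromosome 14 genes to their wild-type mean was 1.51, 1.46 and 1.72 in these clones, so that Med4 was at 0.771, 0.810 and 0.794 of its chromosome. Med21, near the end of chromosome 6, varied most among the clones, by 2.33-fold. It stood at 78.1, 58.9 and 63.0 TPM in wild-type and 98.5, 49.3 and 115 TPM in the clones, with clone 11 below and clones 8 and 15 above all wild-type replicates. Its log2 fold change was 0.31 (SE 0.27, adjusted p = 0.5), and each clone moved it, to 0.17 without clone 8, 0.54 without clone 11 and 0.17 without clone 15. Over the uninduced wild-type mean, clones 8, 11 and 15 had Med21 ratios of 1.48, 0.739 and 1.72, beside a median ratio of 0.982, 0.633 and 1.16 for the 76 genes within 20 Mb of Med21. Med21 overlaps Tm7sf3 on the opposite strand, and whether the strand was used in counting is not given in the sources used here. The part of chromosome dose in these levels was not tested. On the 14 other autosomes with members and without Med4 or Med21, the chromosome medians lay between 0.948 and 1.21 in the uninduced clones.

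**Figure D5:**
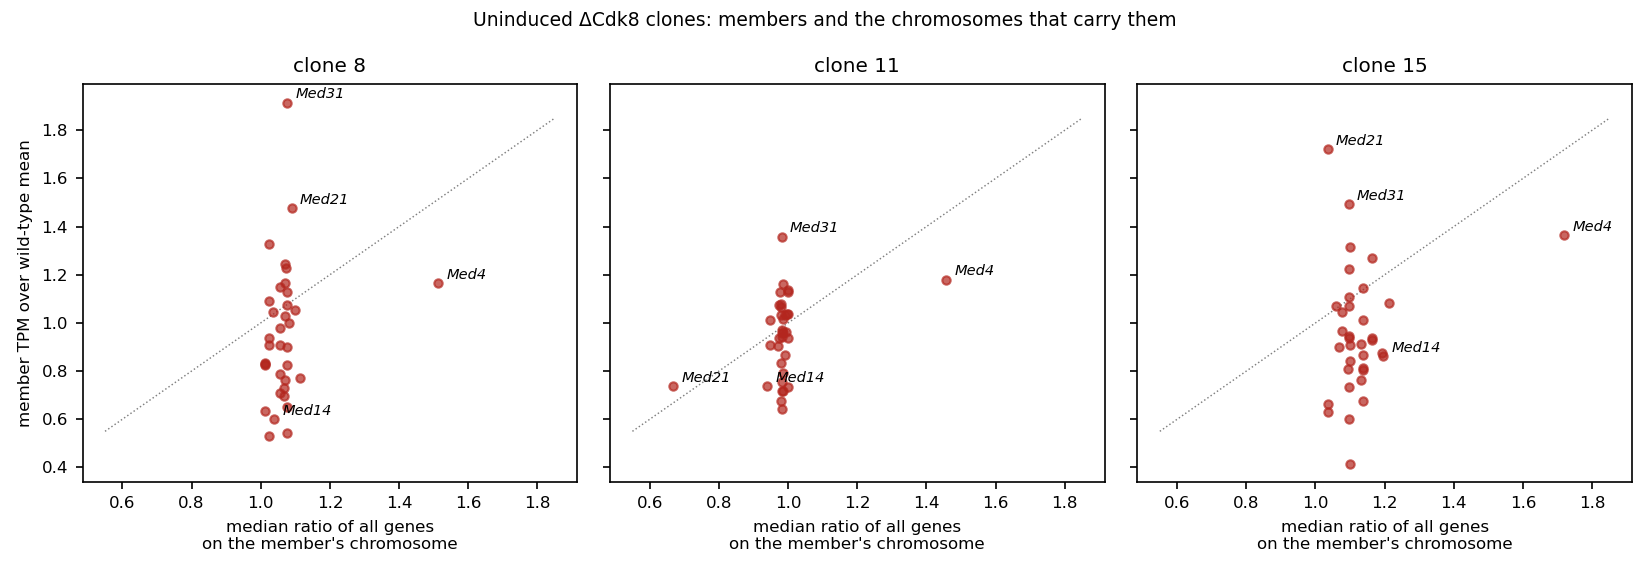
Ratio of each gene's TPM in an uninduced ΔCdk8 clone to the uninduced wild-type mean, against the median ratio of all genes on its chromosome, with 1 panel per clone and a dotted line of equal ratios. Med4 lies to the right, at chromosome medians of 1.51, 1.46 and 1.72, Med21 lies to the left in clone 11 (0.667), and Med31 lies above the line in all 3 clones.

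Other genes of the transcription machinery were taken from lists by function. Of the 7 TFIIH core genes, 13 RNA polymerase II subunits and 18 elongation regulators, none was called in wild-type or ΔCdk8 cells upon induction or between uninduced genotypes, and of the 7 kinase module genes only Med12 was, in wild-type. With the replicate block, 4 of the 18 elongation regulators had an adjusted p under 0.05 in the higher direction in wild-type cells, compared with 12.2% of all genes. The share of all genes called in that direction with the block is not given here. The super elongation complex scaffold Aff1 was among these 4 and was the only further listed gene called upon induction with the block. It stood at 5.84, 9.30 and 7.69 TPM in uninduced and 12, 19.8 and 19.05 TPM in induced wild-type replicates, and at 11.8, 11.6 and 13.8 TPM and 17.9, 18.0 and 19.5 TPM in the clones. In wild-type its log2 fold change was 1.15 (SE 0.27, edgeR adjusted p = 0.063) and, with the block, 1.13 (SE 0.10, adjusted p = 0.00222). In uninduced cells all 13 polymerase subunits had a negative log2 fold change in the clones, with a median of −0.33, and all 7 TFIIH core genes did too, with a median of −0.25, beside a median of 0.03 and 47.9% negative values over all genes. Of the 18 elongation regulators 13 were negative (median −0.16), and of the 7 kinase module genes 5 were positive (median 0.18), compared with 52.1% of all genes. Among these 5 was Cdk8 itself (0.32 in gene reads), whose mean TPM was lower in the clones, 58.8 against 69.3. At an unadjusted p under 0.05 there were 5 polymerase subunits, 2 TFIIH core genes and 3 elongation regulators in the lower direction, compared with 8.49% of all genes, and 1 elongation regulator and 1 kinase module gene in the higher direction, compared with 11.9%. None passed the adjusted threshold.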

How the data were processed

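Polyadenylated RNA of 12 libraries was prepared with a stranded kit and sequenced in single-end reads. Per the methods of the study, the authors aligned untrimmed reads to the Ensembl GRCm38 genome in CLC Genomics Workbench. The deposited tables, 1 per library, hold read counts per gene (total, unique, exon and intron) and TPM values, which the authors used as their normalisation. The deposited RPKM values (exon reads per exon length and library size) and the deposited fractions (unique share of exon reads, intron share of gene reads) come from the authors' software as well and entered no test. The strand setting of the counting is not given in the sources used here. Groups came from the genotype, induction and number in the labels. Nothing states how far the wild-type replicates were separate cultures, so p-values measure the spread between libraries. Counts of total gene reads were tested with edgeR 4.0.16 (TMM scaling, filterByExpr with 10 reads and 15 in total, quasi-likelihood F test, Benjamini-Hochberg adjustment over all genes tested), and a gene was called at a fold change over 2 and an adjusted p under 0.01; all 35 genes passed the filter. DESeq2 1.42.0 with its Wald test, the kind of test that the study names, was an alternative. Both fits were tested on simulated data without pairing. These had less spread than the unblocked edgeR fits (common dispersion 0.0857 to 0.142) and larger fold changes than any member showed. The simulation therefore does not test the fits at the effects given here.

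Uninduced and induced libraries of the same number paired: deviations from the group means correlated at 0.613, 0.455 and 0.424 for wild-type replicates and 0.785, 0.840 and 0.735 for clones over 15137 genes. A replicate block was therefore fitted as an alternative. Single values were tested with 2-sided exact permutation tests. Alternatives left out each replicate and changed tool, scaling, filter, reads counted and libraries fitted. The members and lists were chosen with earlier results of these data known. Named with test values were the X-linked member, members past the threshold without or with the block, and the 3 largest log2 fold changes in each direction per comparison. Values in every library were also given for the 4 kinases, the highest and lowest member and the member that varied most among the clones. The values of Med11, Med16 and Med23, the partners of the kinases, the clause on Med29 and the printed promoters were chosen after their values were seen.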

Additional observations from a re-analysis of the deposited data

Results flagged for a closer look

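For Med14 the test of the difference in induction between the genotypes had an adjusted p under 0.01 with the replicate block, but its fold of 1.62 stayed under 2 and it was not called. With the replicate block the interaction was 0.70 on the log2 scale (adjusted p = 0.00598, edgeR quasi-likelihood test), from residual expression of 0.387 to 0.444 in wild-type replicates and 0.590 to 0.702 in clones. Without the block the adjusted p was 0.936. With it, the adjusted p was 0.000683 without replicate 1 and 0.0207 to 0.0368 when any other replicate or clone was left out.

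Med1 was higher after induction in all 3 wild-type pairs and lower in all 3 clones, a log2 difference of −0.30. The adjusted p of this difference was 1.00 in edgeR and 0.148 with the block, and 1.84% of all genes showed such an opposite movement. In intron reads the difference was 0.16, the other way.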

How the results depend on the processing

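The 25 log2 fold changes named gave 405 values over the alternative fits, of which 394 kept direction and side of the threshold. Only Med14 in wild-type had a fold over 2 without the block. For the other values, keeping the side of the threshold says little of how the adjusted p moved. For the call of Med14 in wild-type cells, intron reads gave −1.50 with an adjusted p of 0.0103 (edgeR), and leave-one-out fits gave −1.33 to −1.23. The number of members called in wild-type was 1 and became 0 with intron reads, 0 to 1 in leave-one-out fits, 0 with the block without replicate 2, 2 at an unadjusted p under 0.05 and 4 with the block at an adjusted p under 0.05. In ΔCdk8 cells none was called, against 1 at an unadjusted p under 0.05 and 2 with the block at an adjusted p under 0.05. For the interaction these numbers were 0, 1 and 1. Between uninduced genotypes they were 0, 5 at an unadjusted p under 0.05 and 4 in DESeq2 at an adjusted p under 0.05. The replicate block changed no member's call under the fold rule. Directions turned in 7 fits of genes that no test called: in intron reads, Med20 in ΔCdk8 cells (−0.051) and the interactions of Med30 (−0.22), Med1 (0.16) and Med24 (0.10), and, for Med25 in ΔCdk8 cells, without clone 11 (−0.020, with the block −0.099) and with the block without clone 8 (−0.042). Leave-one-out fits gave Med25 −0.020 to 0.18 without the block. With direction kept, intron reads moved further values by over 1.5 times: uninduced Med4 (0.61), Med21 (0.60), Med31 (0.33), Med10 (−0.17) and Med14 (−0.14), Med24 (0.11) and Med25 (0.18) in wild-type replicates, Med14 (−0.30), Ccnk (0.25) and Med25 (0.20) in ΔCdk8 cells, and the interactions of Med14 (1.20) and Mnat1 (0.45). The causes were not tested. The fits with the block at 0.05, with the block and a left-out replicate, and with DESeq2 at 0.05 were chosen after the data were seen. With 3 libraries per group, an exact test of a single value cannot reach an exact permutation p below 0.1.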
